A study of Homo sapiens with 6 samples.

Results

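The genes described here encode glycosyltransferases that build the sugar chains of glycoproteins and glycolipids. They were taken by name from an RNA-seq count table of Huh7 cells, an established line from a human liver cancer: 12 ALG genes, 8 MGAT genes, 18 GALNT genes, 7 B4GALT genes, 8 B3GNT genes, 8 sialyltransferase genes (ST3GAL and ST6GAL) and 9 FUT genes. These are 70 of the 79172 gene names in the table. The study compared 3 Huh7 libraries that overexpress HK1, the gene of the glycolytic enzyme hexokinase 1, with 3 control Huh7 libraries. The labels name neither the vector or method behind the overexpression nor any treatment of the controls.

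N-glycans begin as a lipid-linked oligosaccharide that the ALG enzymes assemble sugar by sugar on dolichol at the endoplasmic reticulum. After transfer to a protein and trimming, the MGAT enzymes add N-acetylglucosamine branches in the Golgi, B4GALT enzymes add galactose, B3GNT enzymes lengthen the chains, and sialyl- and fucosyltransferases cap them. GALNT enzymes start a separate class, the mucin-type O-glycans, by attaching N-acetylgalactosamine to serine or threonine. Hepatocytes secrete most plasma glycoproteins, and changes in branching, sialylation and fucosylation of their glycans are well known in liver cancer.

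Libraries held 19607663 to 20823072 counts in HK1-overexpressing cells and 16771835 to 20071846 in controls. HK1 was at 490.8, 511.0 and 526.9 CPM (counts scaled to library size) in HK1-overexpressing libraries and 0.655, 0.882 and 0.790 CPM in controls, so the libraries labelled as overexpressing HK1 carry it. The hepatocyte origin was visible in the markers ALB, AFP, APOA1, APOB, TF, TTR, SERPINA1 and HNF4A, of which 5 of 8 were lower in HK1-overexpressing cells and 0 higher. Of all tested genes 4.15% were lower and 3.87% higher. HNF4A (log2 fold change 0.011), APOB (-0.16) and SERPINA1 (-0.51) were not called. The summed level of the 8 was 9217 to 9503 CPM in HK1-overexpressing and 11914 to 12937 CPM in control libraries. ALB, with the highest mean of the 8 in both groups, averaged 3422 CPM in HK1-overexpressing and 4935 CPM in control cells. Among markers of other cells, 6 fibroblast genes summed to 24.1 to 25.2 CPM in HK1-overexpressing and 20.3 to 21.8 CPM in control libraries. COL1A2, at 17.8 CPM in HK1-overexpressing and 11.9 CPM in control cells on average, carries that sum and was the 1 of 3 tested that was called, while the median log2 fold change of the 3 was -0.33 and the other 2, COL3A1 (-0.47) and PDGFRA (-0.33), were not called. The 5 endothelial genes summed to 4.54 to 5.41 CPM in HK1-overexpressing and 4.03 to 6.26 CPM in control libraries, with CDH5, KDR and TEK at 0. The 5 immune genes summed to 3.28 to 4.0 CPM in HK1-overexpressing and 3.34 to 4.03 CPM in control libraries. The part of these marker changes in the results below was not tested. In bulk samples, fewer cells of a type and less RNA per cell cannot be told apart. The labels do not say whether replicates came from separate cultures, so the p-values below rest on a spread among libraries that could be technical alone. Each group difference below is a log2 fold change, HK1-overexpressing over control, from the edgeR quasi-likelihood test fitted over all 16734 genes that passed a filter on low counts, with Benjamini-Hochberg adjusted p and a threshold of 0.05.

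Of the 70 genes, 51 were tested, 12 had counts too low for the test and 7 had a count of 0 in every library. FUT3, GALNT5 and B4GALT1 were higher in HK1-overexpressing cells, and ST6GAL1, B3GNT5 and ALG5 were lower. The other 45 were not called, with log2 fold changes from -0.35 to 0.81. These 6 are 11.8% of the tested members, against 8.02% of all tested genes called in either direction, of which 3.87% were higher and 4.15% lower. The median log2 fold change was 0.04 over the tested members and 0.0063 over all tested genes. HK1-overexpressing and control libraries did not overlap in CPM for 24 tested members, or 47.1%, against 27.8% of all tested genes. At an unadjusted edgeR p under 0.05, 14 tested members (27.5%) were higher and 4 (7.84%) lower, against 10.7% and 11.2% of all tested genes. The numbers of calls moved with the libraries used: 10 members were higher and 3 lower without control replicate 1, and 5 higher and 3 lower without control replicate 2. Calls over all genes moved with them: 13.1% of all tested genes were called without control replicate 1 and 10.6% without control replicate 2, against 25.5% and 15.7% of the tested members. Without HK1-overexpressing replicate 2 or 3, 1 was higher and 1 lower, and without HK1-overexpressing replicate 1, 2 were higher and 1 lower. Without control replicate 3, 3 were higher and 1 lower. Leaving out 1 of these 4 libraries, 3.13% to 4.71% of all tested genes were called, against 3.92% to 7.84% of the tested members. With library totals in place of TMM scaling, 5 were higher and 2 lower.

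**Figure D1:**
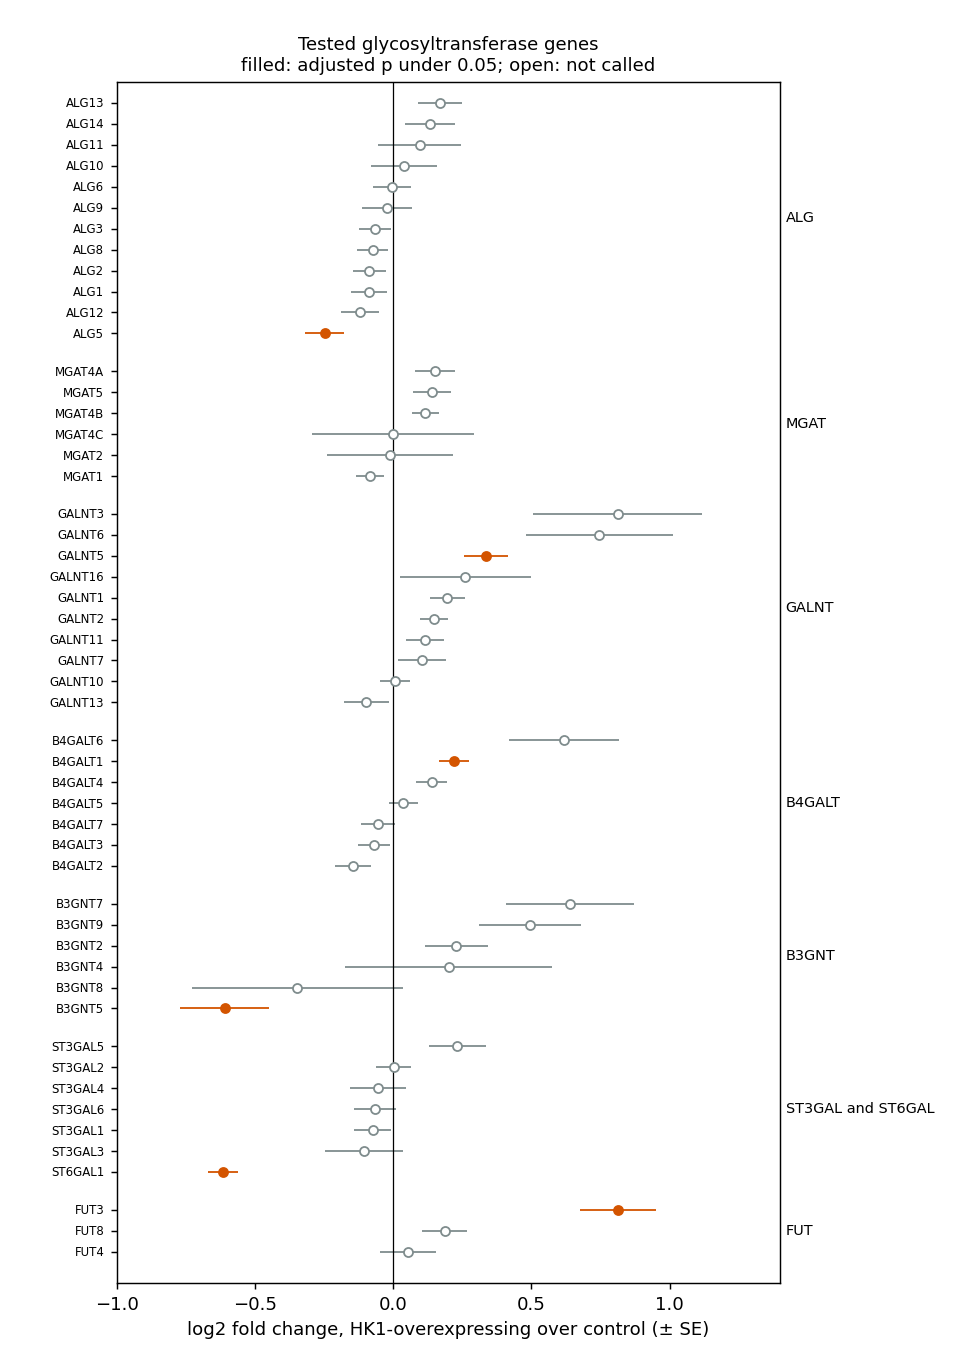
Log2 fold change, HK1-overexpressing over control, of each of the 51 tested glycosyltransferase genes by family, with its standard error as a bar. The 6 called genes are filled and the 45 others open. FUT3 (0.81) and ST6GAL1 (-0.62) stand apart from the remaining members of their families, while GALNT3 (0.81) and GALNT6 (0.75) have high values with wide bars and were not called.

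ST6GAL1, which puts sialic acid on the galactose ends of N-glycans and is abundant in liver, was the member with the smallest p. It lies on the plus strand of chromosome 3 from 186930325 to 187078553 in the hg38 build. Its level was 82.8, 75.8 and 80.9 CPM in HK1-overexpressing libraries, against 123.9, 119.8 and 123.3 CPM in control libraries. All 3 HK1-overexpressing values lie well under the lowest control value. The means were 79.8 ± 3.66 CPM in HK1-overexpressing cells and 122.3 ± 2.24 CPM in controls (SD, n = 3 each), a log2 fold change of -0.62 (SE 0.0541, edgeR adjusted p = 6.76e-06). That is 0.653 times the control level. None of its exon bases is shared with another gene. The call held under each of the 15 alternatives run on it, with log2 fold changes from -0.64 to -0.58. The summed hepatocyte markers given above were also lower, and their part in this value was not tested.

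The 6 tested ST3GAL genes, whose enzymes attach sialic acid to galactose through another linkage, were not called and ranged from -0.11 to 0.23 on the log2 scale. ST3GAL5, which makes the ganglioside GM3, had the smallest p among them, with 13.3, 14.6 and 11.6 CPM in HK1-overexpressing and 11.8, 10.2 and 11.6 CPM in control libraries (log2 0.23, edgeR adjusted p = 0.199). Its groups overlap. ST3GAL2, which acts mainly on O-glycans and glycolipids, averaged 79.5 ± 1.49 CPM in HK1-overexpressing cells and 79.4 ± 6.08 CPM in controls (SD, n = 3 each). Its log2 fold change was 0.0013 with a standard error of 0.0623. As levels per kilobase of exon, which allow genes to be compared, ST3GAL2 was at 8.16 and ST6GAL1 at 7.17 CPM per kilobase in HK1-overexpressing cells, against 8.14 and 10.98 CPM per kilobase in controls. ST6GAL1 thus made up 26.6% of the summed per-kilobase level of the 8 sialyltransferase genes in HK1-overexpressing cells and 35.2% in controls. ST6GAL2 had a count of 0 in all 6 libraries.

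FUT3 encodes the Lewis fucosyltransferase, which adds the fucose that completes Lewis a and sialyl Lewis a. It was higher in HK1-overexpressing cells, at a low level in both groups. The gene lies on the minus strand of chromosome 19 from 5842888 to 5851471. Raw counts were 127, 142 and 151 in HK1-overexpressing libraries, against 67, 79 and 60 in control libraries. In CPM these were 6.41, 6.84 and 7.17 in HK1-overexpressing libraries, against 3.37, 4.64 and 3.65 in control libraries, with no overlap. The log2 fold change was 0.81 (SE 0.137, edgeR adjusted p = 0.00189), or 1.76 times the control level. This call too held under each of the 15 alternatives run on it, with log2 fold changes from 0.72 to 0.96. FUT3 also has exons on an alternate sequence of the build, and it has close paralogs in FUT5 and FUT6 on the same chromosome. Fragments that map to several places may be missing from its count, so the level is uncertain.

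Of the other 8 FUT genes only FUT8 and FUT4 had enough counts for the test, and neither was called. FUT8, which adds the core fucose of N-glycans, was at 26.4, 27.8 and 28.4 CPM in HK1-overexpressing and 26.9, 22.3 and 23.2 CPM in control libraries (log2 0.19, edgeR adjusted p = 0.192). Control replicate 1 lies within the HK1-overexpressing range. Without that library FUT8 was called (log2 0.28, edgeR adjusted p = 0.0213). FUT4, which makes Lewis x structures, averaged 9.73 ± 0.960 CPM in HK1-overexpressing cells and 9.38 ± 0.399 CPM in controls (SD, n = 3 each). As levels per kilobase, FUT8 was the highest of the family at 3.95 in HK1-overexpressing cells and 3.46 CPM per kilobase in controls, and FUT3 was at 2.19 in HK1-overexpressing cells and 1.252 in controls. FUT6 had 7 to 10 counts in HK1-overexpressing and 3 to 9 in control libraries, FUT2 had 2 to 4 in HK1-overexpressing and 1 to 4 in control libraries, and FUT1 and FUT5 had at most 1 in any library. FUT7 and FUT9 had a count of 0 in every library. For FUT5, 82.5% of the exon bases are shared with another annotated gene, and fragments that overlap more than 1 gene are left out of such counts.

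**Figure D2:**
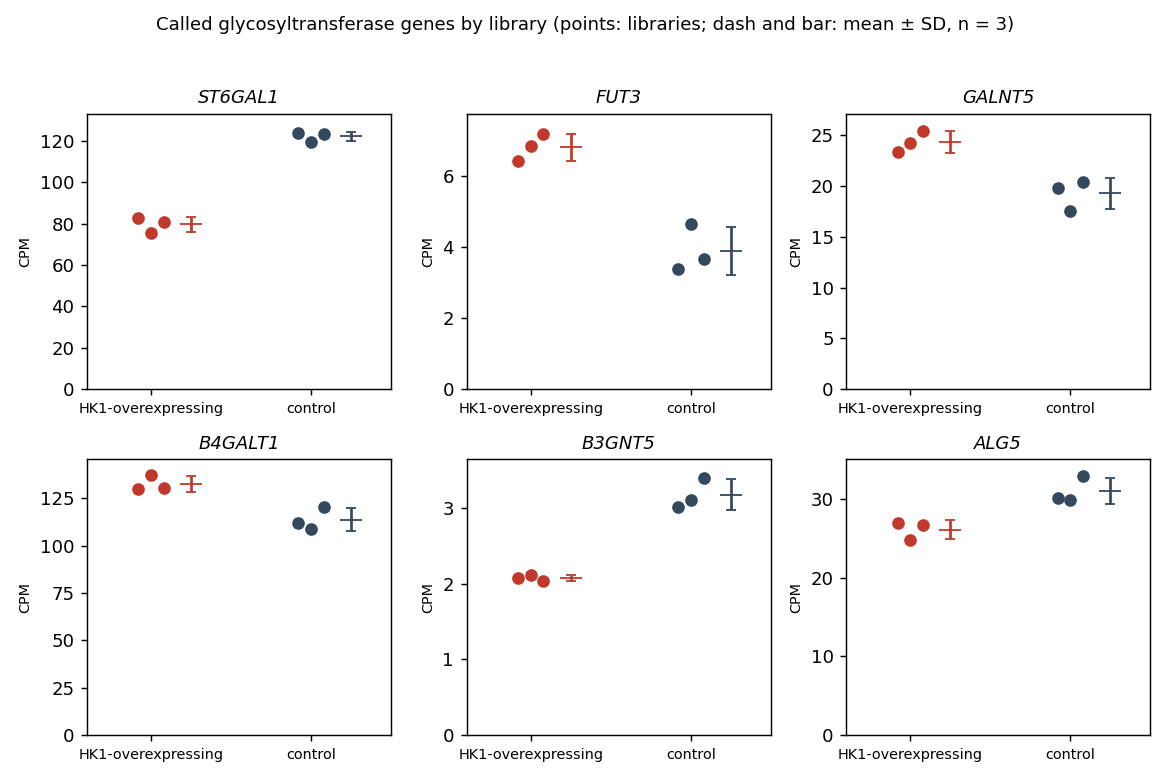
Level in CPM of the 6 called glycosyltransferase genes in each library, HK1-overexpressing on the left and control on the right of each panel, with mean ± SD beside the points (n = 3 each) and axes that start at 0. In none of the panels do the groups overlap. For ST6GAL1, HK1-overexpressing libraries lie at 75.8 to 82.8 CPM and control libraries at 119.8 to 123.9 CPM.

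GALNT5 was the only one of 10 tested GALNT genes that was called. It lies on the plus strand of chromosome 2 from 157257705 to 157318491, and its enzyme is among those that start O-glycans. Its level was 23.3, 24.2 and 25.4 CPM in HK1-overexpressing libraries, against 19.8, 17.5 and 20.4 CPM in controls. The groups do not overlap, and the log2 fold change was 0.34 (SE 0.0799, edgeR adjusted p = 0.0178). The call was lost without HK1-overexpressing replicate 2 or 3, where the largest adjusted p was 0.111.

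GALNT2 and GALNT1, broadly expressed starters of O-glycosylation, were the most abundant of the family and were not called. GALNT2 was at 251.0, 260.0 and 269.5 CPM in HK1-overexpressing and 245.5, 234.3 and 224.2 CPM in control libraries, which do not overlap (log2 0.15, edgeR adjusted p = 0.0945). GALNT1 was at 98.5, 100.6 and 97.4 CPM in HK1-overexpressing libraries, against 94.6, 79.7 and 84.5 CPM in controls (log2 0.19, edgeR adjusted p = 0.0773). Both were called without control replicate 1 and with library totals only, and GALNT1 also without a filter, with a lowest adjusted p of 0.0141 for GALNT2 and 0.00238 for GALNT1. GALNT2 and GALNT1 made up 42.1% and 24.0% of the summed per-kilobase level of the 18 GALNT genes in HK1-overexpressing cells, against 41.8% and 23.1% in controls. Outside the rule for named genes, GALNT3 and GALNT6 had the largest log2 values of the family, 0.81 and 0.75, at low levels. GALNT3 was at 0.997 to 1.57 CPM in HK1-overexpressing and 0.470 to 0.957 CPM in control libraries, and GALNT6 at 1.01 to 1.38 CPM in HK1-overexpressing and 0.646 to 0.790 CPM in control libraries. Their standard errors were 0.306 and 0.267, and neither was called (edgeR adjusted p = 0.125 and 0.104), although GALNT3 was without control replicate 1 (edgeR adjusted p = 0.0380). The remaining tested members, GALNT7, GALNT10, GALNT11, GALNT13 and GALNT16, had log2 fold changes from -0.10 to 0.26.

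The other 8 GALNT genes were not tested. GALNT12 had 5 to 12 counts in HK1-overexpressing and 2 to 9 in control libraries. GALNT4 had 4 to 6 counts in HK1-overexpressing and 1 to 7 in control libraries. GALNT18 had at most 5 in any library, GALNT9 and GALNT15 at most 3, and GALNT17 had 1 count in 1 control library. GALNT8 and GALNT14 were at 0 throughout. Of the exon bases of GALNT4, 95.04% are shared with other genes, most of them with the read-through gene POC1B-GALNT4, and fragments that overlap more than 1 gene are left out, so its level is uncertain.

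**Figure D3:**
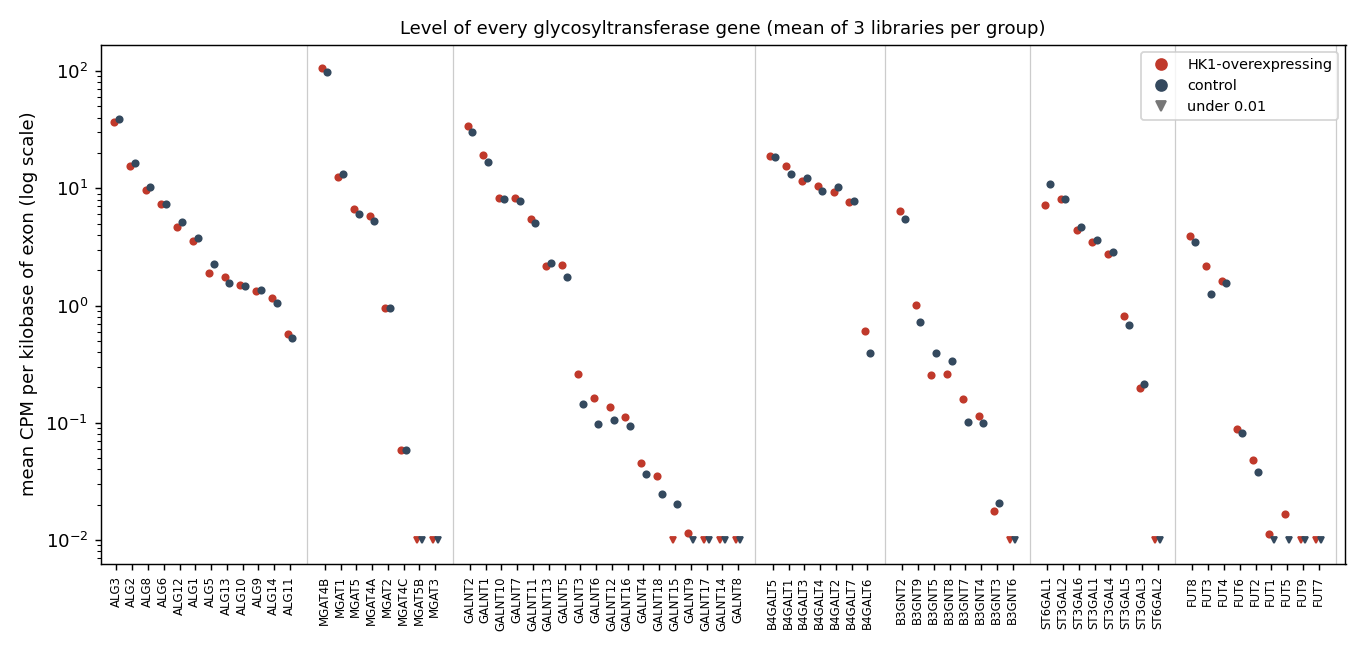
Mean level of all 70 genes in CPM per kilobase of exon on a log axis, HK1-overexpressing to the left of control for each gene, ordered by level within each family; triangles mark means under 0.01. MGAT4B is the highest at 105.7 in HK1-overexpressing and 97.5 in control cells. The FUT, B3GNT and GALNT families run from their highest genes, FUT8, B3GNT2 and GALNT2, down to a tail near 0.

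Among the MGAT genes, 6 were tested and 0 were called by edgeR, with 1 higher and 0 lower at an unadjusted p under 0.05, which 10.7% of all tested genes passed as higher and 11.2% as lower. None of the 6 was called by DESeq2 or limma-voom either. MGAT4B, which adds a branch to N-glycans, was the most abundant of all 70 genes per kilobase. Like FUT3, it has exons on an alternate sequence of the build, so fragments that map to several places may be missing and its level is uncertain. It was at 561.5, 587.7 and 592.8 CPM in HK1-overexpressing and 538.9, 555.5 and 512.2 CPM in control libraries, which do not overlap (log2 0.12, SE 0.0477, edgeR adjusted p = 0.163). It was called without control replicate 2 (edgeR adjusted p = 0.0276). MGAT1, which starts the conversion to complex N-glycans, averaged 142.4 ± 2.53 CPM in HK1-overexpressing cells and 151.0 ± 7.18 CPM in controls (SD, n = 3 each). MGAT5, whose branch is associated with metastasis, averaged 58.1 ± 2.98 CPM in HK1-overexpressing cells and 52.7 ± 3.92 CPM in controls, and was called only without control replicate 1 (edgeR adjusted p = 0.0478). MGAT4A, a paralog of MGAT4B, was at 54.6 to 57.7 CPM in HK1-overexpressing and 44.9 to 54.2 CPM in control libraries. MGAT2, which opens the other arm of complex N-glycans, had only 47 to 58 counts in HK1-overexpressing and 28 to 68 in control libraries. Of its exon bases 92.6% are shared with an annotated gene on the opposite strand, so its level is uncertain. MGAT4C was at 0.997 to 2.07 CPM in HK1-overexpressing and 1.06 to 1.96 CPM in control libraries. MGAT3, which makes the bisecting branch, and MGAT5B had a count of 0 in every library. A count of 0 allows up to 3 counts, or 0.144 to 0.153 CPM in HK1-overexpressing and 0.149 to 0.179 CPM in control libraries scaled to their totals, and this limit covers counting error only.

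B4GALT1, the main enzyme that adds galactose to N-glycan branches, was higher in HK1-overexpressing cells by a small amount. It lies on the minus strand of chromosome 9 from 33100493 to 33167336. Levels were 129.7, 137.1 and 130.4 CPM in HK1-overexpressing libraries, against 111.9, 108.5 and 120.5 CPM in controls. The groups do not overlap, and the log2 fold change was 0.22 (SE 0.0551, edgeR adjusted p = 0.0238). The call was lost without any 1 HK1-overexpressing replicate, where the largest adjusted p was 0.172.

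The other 6 B4GALT genes were not called. B4GALT6, a lactosylceramide synthase, had the smallest p, with 2.63, 3.37 and 3.37 CPM in HK1-overexpressing and 2.47, 1.53 and 2.07 CPM in control libraries (log2 0.62, SE 0.199, edgeR adjusted p = 0.0725). Its groups do not overlap, and it was called without control replicate 1 (edgeR adjusted p = 0.0187). B4GALT5, the other lactosylceramide synthase, was the most abundant of the family per kilobase and averaged 89.2 ± 1.46 CPM in HK1-overexpressing cells and 87.0 ± 2.20 CPM in controls (SD, n = 3 each). B4GALT4 and B4GALT2 did not overlap between groups and differed in sign, with log2 fold changes of 0.14 and -0.15 (edgeR adjusted p = 0.160 and 0.210). B4GALT4 was called without control replicate 2 (edgeR adjusted p = 0.0384). B4GALT3 had a log2 fold change of -0.07, and B4GALT7, which acts on the linker of glycosaminoglycans, of -0.06.

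B3GNT5, which starts the lacto-series glycolipids, was lower in HK1-overexpressing cells at a low level. The gene is on the plus strand of chromosome 3 from 183253253 to 183298504. Raw counts were 41, 44 and 43 in HK1-overexpressing libraries, against 60, 53 and 56 in controls. As CPM this was 2.07, 2.12 and 2.04 in HK1-overexpressing libraries, against 3.02, 3.11 and 3.41 in control libraries, with no overlap. The log2 fold change was -0.61 (SE 0.162, edgeR adjusted p = 0.0324). It was not called with DESeq2, without a filter, without control replicate 3 or without any 1 HK1-overexpressing replicate, where the largest adjusted p was 0.157. Of its exon bases 16.2% are shared with MCF2L2 on the opposite strand, and the recorded command sets no strand option.

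B3GNT2, which extends chains of N-acetyllactosamine, made up 77.8% of the summed per-kilobase level of the 8 B3GNT genes in HK1-overexpressing cells and 76.6% in controls. It was at 18.7, 18.1 and 18.3 CPM in HK1-overexpressing and 18.1, 12.3 and 16.4 CPM in control libraries (log2 0.23, edgeR adjusted p = 0.269), and was called without control replicate 1 (log2 0.36, edgeR adjusted p = 0.0260). B3GNT7, which acts on keratan sulfate, had the smallest p among uncalled B3GNT genes, with 1.67, 1.49 and 1.33 CPM in HK1-overexpressing and 0.907, 0.999 and 0.973 CPM in control libraries. Its groups do not overlap (log2 0.64, SE 0.232, edgeR adjusted p = 0.111). B3GNT9 also did not overlap, at 2.47 to 2.89 CPM in HK1-overexpressing and 1.58 to 2.17 CPM in control libraries (log2 0.49, edgeR adjusted p = 0.123). B3GNT4 and B3GNT8 were under 1 CPM in all libraries, and B3GNT3 and B3GNT6 had at most 2 counts and were not tested.

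All 12 ALG genes were tested, and 1 was called. ALG5, which makes the dolichyl-phosphate glucose used for the last additions to the lipid-linked oligosaccharide, was lower in HK1-overexpressing cells. It lies on the minus strand of chromosome 13 from 36949738 to 37000763. Its level was 26.9, 24.7 and 26.6 CPM in HK1-overexpressing libraries, against 30.2, 29.9 and 33.0 CPM in controls, with no overlap. The log2 fold change was -0.25 (SE 0.0715, edgeR adjusted p = 0.0463). This call was the least stable of the 6, since 11 of 15 alternatives lost it. Those include DESeq2, limma-voom, library totals only and leaving out any 1 HK1-overexpressing replicate or control replicate 3, and the largest adjusted p was 0.242.

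The other 11 ALG genes had log2 fold changes from -0.12 to 0.17. ALG3, a mannosyltransferase, was the most abundant per kilobase and averaged 127.6 ± 4.07 CPM in HK1-overexpressing cells and 133.7 ± 9.54 CPM in controls (SD, n = 3 each). ALG13, part of the enzyme that adds the N-acetylglucosamine after the one placed by DPAGT1, had the smallest p among them. It was at 14.5, 14.5 and 14.3 CPM in HK1-overexpressing and 12.6, 12.8 and 13.1 CPM in control libraries, with no overlap (log2 0.17, edgeR adjusted p = 0.231). ALG14, its partner, had a log2 fold change of 0.13. The mannosyltransferases ALG1, ALG2, ALG9, ALG11 and ALG12 ranged from -0.12 to 0.10, and the glucosyltransferases ALG6, ALG8 and ALG10 from -0.08 to 0.04. Exon bases shared with other genes make up 35.2% of ALG11, 39.7% of ALG10 and 42.3% of ALG12, so their levels are uncertain.

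The table of upstream windows from RefSeq, build GRCh38.p14, matched 55 of the 70 symbols, GALNT5 not among them. The windows of 3 called genes that lie outside the gene's own exons, but for 22 bases at the end of that of FUT3, are shown here, since they let the sequence before a higher and a lower gene be read side by side. Each is 250 bases, 5′ to 3′ on the gene's strand, up to the start that the window annotation gives. For FUT3 the last 22 of these bases lie inside the gene as counted. The windows are at chr19:5851450-5851699 (minus) for FUT3, chr9:33167337-33167586 (minus) for B4GALT1 and chr3:183253003-183253252 (plus) for B3GNT5. Capitals mark each match to the GC box GGGCGG on either strand.
FUT3: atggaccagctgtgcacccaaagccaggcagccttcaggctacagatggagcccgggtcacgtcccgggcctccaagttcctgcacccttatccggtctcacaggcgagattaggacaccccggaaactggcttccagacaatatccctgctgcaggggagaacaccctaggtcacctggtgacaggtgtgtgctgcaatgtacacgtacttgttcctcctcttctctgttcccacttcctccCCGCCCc
B4GALT1: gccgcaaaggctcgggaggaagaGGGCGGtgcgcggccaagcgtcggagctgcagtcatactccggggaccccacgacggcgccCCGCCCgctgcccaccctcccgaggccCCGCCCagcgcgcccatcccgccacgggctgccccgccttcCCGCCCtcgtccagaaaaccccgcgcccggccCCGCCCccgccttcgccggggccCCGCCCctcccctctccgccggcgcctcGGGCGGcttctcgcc
B3GNT5: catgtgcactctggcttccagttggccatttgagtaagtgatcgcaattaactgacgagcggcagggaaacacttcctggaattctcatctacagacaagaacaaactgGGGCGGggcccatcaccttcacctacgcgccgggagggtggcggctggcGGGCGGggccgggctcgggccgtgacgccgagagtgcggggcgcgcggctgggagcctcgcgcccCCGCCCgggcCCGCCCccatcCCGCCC
The window of FUT3, which was higher, holds 1 match, that of B4GALT1, also higher, holds 7, and that of B3GNT5, which was lower, holds 5. The match of FUT3 lies in the last 22 bases, inside its own exon, and the bases before them hold none. This motif is in 42.64% of all 35116 windows of that length. None of the 3 windows holds TATAAA or the E-box CACGTG on either strand, which are in 10.72% and 6.34% of windows. The share of G and C bases was 59.2% for FUT3, 80.0% for B4GALT1 and 68.0% for B3GNT5, against a median of 58.0% over all windows. Counts per gene do not tell which start site was used.

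Around these families, 104 other genes of glycan building were grouped in 7 lists, of which 88 were tested, with 1 higher and 5 lower, or 6.82% called, against 8.02% of all tested genes. Of 12 genes of dolichol and lipid-linked oligosaccharide assembly 0 were higher and 2 lower. DOLPP1, which recycles dolichyl pyrophosphate, averaged 64.2 ± 1.89 CPM in HK1-overexpressing cells and 75.2 ± 3.16 CPM in controls (SD, n = 3 each; log2 -0.23, edgeR adjusted p = 0.0243). Of 12 oligosaccharyltransferase genes, OSTC, a subunit of that complex, was lower at 97.5 ± 3.79 CPM in HK1-overexpressing cells and 114.3 ± 5.92 CPM in controls (SD, n = 3 each; log2 -0.23, edgeR adjusted p = 0.0229). Of 11 trimming genes, GANAB, the catalytic subunit of glucosidase II, was lower at 842.5 ± 13.2 CPM in HK1-overexpressing cells and 970.6 ± 25.7 CPM in controls (SD, n = 3 each; log2 -0.20, edgeR adjusted p = 0.00977). The calls of DOLPP1, OSTC and GANAB were each lost without any 1 HK1-overexpressing replicate, that of OSTC also without control replicate 3, and those of DOLPP1 and OSTC with library totals only.

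Further along, ST6GALNAC4, which sialylates O-glycans, was the only higher gene of the 7 tested in the list of O-glycan extension. It averaged 16.4 ± 0.310 CPM in HK1-overexpressing cells and 12.5 ± 0.607 CPM in controls (SD, n = 3 each; log2 0.39, edgeR adjusted p = 0.00828), and its call was lost without HK1-overexpressing replicate 2 (edgeR adjusted p = 0.0512). Among 15 tested genes of other terminal and branch-building enzymes 0 were higher and 1, B4GAT1, was lower. B4GAT1, which primes the functional glycan of dystroglycan, averaged 114.9 ± 3.55 CPM in HK1-overexpressing cells and 142.5 ± 9.16 CPM in controls (SD, n = 3 each; log2 -0.31, edgeR adjusted p = 0.00379), and its call held under each alternative. Of 12 tested nucleotide sugar transporters 0 were called, also at an unadjusted edgeR p under 0.05 and by DESeq2 and limma-voom. The smallest p among them was that of SLC35D2 (log2 -0.14, edgeR adjusted p = 0.241). Of 19 tested genes of nucleotide sugar synthesis 0 were called by edgeR, DESeq2 or limma-voom, with 2 higher and 1 lower at an unadjusted edgeR p under 0.05, against 10.7% and 11.2% of all tested genes. UGP2, which makes UDP-glucose and is named here after its values were seen, was not called with the main settings (log2 0.18, edgeR adjusted p = 0.0539). At the same threshold it was called under 5 alternatives, among them library totals only (log2 0.22, edgeR adjusted p = 0.0209). The others include leaving out control replicate 1 (log2 0.18, edgeR adjusted p = 0.0348) or control replicate 2 (log2 0.17, edgeR adjusted p = 0.0352). Those 2 fits called 13.1% and 10.6% of all tested genes. MPI, which makes mannose 6-phosphate from fructose 6-phosphate, had the smallest p, at 25.2 ± 1.06 CPM in HK1-overexpressing cells and 29.7 ± 1.31 CPM in controls (SD, n = 3 each; log2 -0.24, edgeR adjusted p = 0.0537), and was called without control replicate 1 (edgeR adjusted p = 0.0250).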

How the data were processed

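RNA-seq counts came from 6 Huh7 libraries, 3 overexpressing HK1 and 3 controls. The deposited table gives unnormalized counts of fragments over each gene's exons, which the authors obtained with featureCounts 1.5.3 on GENCODE 47 and hg38, per the file headers and the submitters' processing notes, which also name Trim Galore and Subread. The recorded command sets no strand option and no multiple-overlap option. All sample columns were used. Genes were tested with edgeR 4.0.16 in R 4.3.3 (TMM scaling, filterByExpr, robust quasi-likelihood fit, Benjamini-Hochberg adjustment, threshold 0.05), checked on simulated data. DESeq2 1.42.0 and limma 3.58.1 were alternatives, with other scalings, filters and left-out libraries. Levels are CPM with TMM scaling, also per kilobase of exon on the primary chromosomes, because the deposited length counts alternate copies of 3 members again. These 3 are MGAT4B, GALNT9 and FUT3. Chi-square per degree of freedom between replicates was 1.58 to 2.28 in HK1-overexpressing and 5.08 to 11.3 in control libraries, more than counting noise. This spread does not tell whether the libraries came from separate cultures. Each library was treated as 1 replicate, and the fit did not model the spread separately for each group. The members and lists were chosen with earlier results of these data known. Named were every called member, per family the most abundant per kilobase and the uncalled one of smallest p, untested members, and in each pathway list up to 4 called genes or the gene of smallest p. Other members given were chosen after their values were seen, to complete their family. The values of 1 called gene of the pathway lists are not reported here.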

Additional observations from a re-analysis of the deposited data

How the results depend on the processing

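The members' median, HK1 and the genes named by rule kept their direction under the alternatives run on them, and other members' fold changes were not followed. The balance of higher and lower calls was not kept. The pathway genes, 1 higher and 5 lower with the main settings, were 6 higher and 5 lower without control replicate 2. With library totals only, 5 members were higher, the pathway lists had 2 higher and 3 lower, and the members' median log2 fold change was 0.0784. Over all genes that scaling called 907 higher and 462 lower, against 648 higher and 694 lower with TMM. Without a filter on low counts, 1 member was lower, 3 pathway genes were higher and the median was 0.118, now over 63 members. With a mean CPM of at least 5, 1 member was lower, over 39 members tested, and 2 pathway genes were higher. DESeq2 called 1 member lower. At an adjusted p of 0.10, 6 members and 2 pathway genes were higher. Leaving out each library in turn gave 1 to 10 members higher, 1 to 3 lower, 0 to 6 pathway genes higher and 1 to 9 lower, and medians from 0.0215 to 0.0823, while calls over all genes ranged from 3.13% to 13.1%. The replicate numbers did not pair the libraries: deviations of same-numbered libraries correlated at 0.0071, 0.058 and -0.030, and not every library correlated best with its own number. With the replicate number as a block, 2 members were higher and 1 lower, and 2 pathway genes were higher and 4 lower. In that fit B4GALT1 (edgeR adjusted p = 0.0503), B3GNT5 (0.0555), ALG5 (0.0684) and OSTC (0.0510) were not called, and GFUS was (log2 0.98, edgeR adjusted p = 0.00135, against 0.218 without the block). HK1 kept its call throughout. Depth limits the members at low counts, whose standard errors reached 0.381 on the log2 scale. The cause of each shift was not tested.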

Other observations

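B3GALT5, which makes the chain that FUT3 fucosylates to Lewis a, was under the filter on low counts and was looked at after its values were seen. Its level was 0.454, 0.627 and 0.759 CPM in HK1-overexpressing libraries, against 0.151, 0.235 and 0.182 CPM in control libraries, which do not overlap. Without a filter it was called by edgeR (log2 1.69, adjusted p = 0.0239). Its control levels lie close to the limit of 3 counts, 0.149 to 0.179 CPM in control libraries. The tested B3GALT genes, B3GALT1, B3GALT2 and B3GALT6, went the other way with log2 fold changes of -0.46, -0.45 and -0.14. None of them was called (edgeR adjusted p = 0.0953, 0.160 and 0.185), and B3GALT4 was at 0 in every library. GFUS, which makes the GDP-fucose that all fucosyltransferases use, was also chosen after its values were seen. It was at 7.52, 6.27 and 9.83 CPM in HK1-overexpressing libraries, against 4.63, 1.94 and 5.65 CPM in control libraries. The groups do not overlap and the spread within each is wide (log2 0.95, SE 0.371, edgeR adjusted p = 0.218). It was called without control replicate 2 (log2 0.63, edgeR adjusted p = 0.0434), and the fit with the replicate number as a block is given with the other alternatives. GMDS, FCSK and FPGT, also listed for GDP-fucose synthesis, had log2 fold changes of 0.0005, -0.08 and 0.03 and were not called.

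Summed over each family, the 8 sialyltransferase genes had 248 to 254 CPM in HK1-overexpressing and 291 to 299 CPM in control libraries. ST6GAL1 was the most abundant of them in control libraries. In HK1-overexpressing libraries it averaged 79.8 CPM and ST3GAL2 79.5 CPM. The 9 FUT genes had 43.9 to 46.3 CPM in HK1-overexpressing and 36.5 to 40.3 CPM in control libraries. The sums of the other families did not overlap between groups either, but some gaps were narrow. For B3GNT the lowest HK1-overexpressing sum was 25.06 CPM and the highest control sum 24.93 CPM. Of single tested genes 27.8% did not overlap, and no such share was obtained for sums of genes. Sums follow their most abundant genes: MGAT4B, which was not called, averaged 580.7 CPM in HK1-overexpressing cells and 535.6 CPM in controls. In HK1-overexpressing against control libraries, ALG had 444 to 447 against 458 to 478 CPM, and MGAT 820 to 853 against 765 to 812 CPM. In the same order, GALNT had 580 to 602 against 519 to 572 CPM and B4GALT 424 to 438 against 409 to 414 CPM. B3GNT had 25.1 to 26.6 against 19.7 to 24.9 CPM. Over all 70 genes the sums were 2595 to 2653 CPM in HK1-overexpressing and 2531 to 2616 CPM in control libraries, which overlap. This depends on the TMM scaling. As a share of library totals, the 70 genes held 0.262% to 0.268% in HK1-overexpressing and 0.248% to 0.259% in control libraries, which do not overlap.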
